A study of Mus musculus with 22 samples.

Results

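Expression of 10 genes of the unfolded protein response and the integrated stress response was examined in the spinal cord of old mice and of SOD1-G93A mice. The genes were Atf4, Atf5, Atf6, Xbp1, Hspa5, Ddit3, Trib3, Chac1, Sesn2 and Asns. They were chosen by name, with earlier results of these data known, and all 10 were found among the 21995 genes measured. Whole spinal cords of C57BL/6 mice were profiled by RNA-seq with 1 library per mouse, giving 22 libraries in 4 groups. The aging comparison set 8 old wild-type males at 18 to 24 months against 8 young wild-type males at 3 to 4 months, all prepared with the Roche RNA KAPA Hyperprep kit. The ALS comparison set 3 SOD1-G93A mice against 3 wild-type control mice, all labelled 5 to 6 months and prepared with the Illumina TruSeq kit, with 2 females and 1 male in each group. SOD1-G93A mice carry a transgene for mutant human SOD1 and develop motor neuron disease. The deletion or overexpression of Sirt1 that the same study examined elsewhere was not part of these 4 groups.

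When unfolded proteins accumulate in the endoplasmic reticulum (ER), membrane sensors start the unfolded protein response. ATF6 is cleaved to release a transcription factor, IRE1 splices the Xbp1 mRNA, and PERK phosphorylates the translation factor eIF2α. Phosphorylation of eIF2α is also the shared step of the integrated stress response, which further kinases start upon amino acid shortage, viral RNA or heme shortage. It lowers general translation and favors translation of ATF4, which with its partners and with CHOP, the product of Ddit3, turns on genes for amino acid supply, redox balance and cell death. Both responses have been studied in motor neurons of SOD1-G93A mice. Splicing of Xbp1, cleavage of ATF6, phosphorylation of eIF2α and translation of Atf4 do not show in mRNA levels and were not measured here.

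Libraries of the aging comparison held 5078092 to 9358055 counts, and those of the ALS comparison held 9675610 to 13219797. Defining markers of neurons, motor neurons, astrocytes, oligodendrocytes and microglia were present in every group, whereas 4 skeletal muscle markers summed to at most 3.5 CPM (counts scaled to the size of the library) and Myh4 was at 0 in the young, control and SOD1-G93A libraries. In old mice, 6 of 7 microglial markers were higher, and their sum ran from 472.7 to 787.5 CPM against 306.6 to 341.5 CPM in young mice. The lowest old sum was that of the library d149034, against 628.2 CPM or more in the other old libraries. The same library had the highest neuronal sum of the old mice, 5777 CPM against 4064 to 5114 CPM. In SOD1-G93A mice, 5 of 7 microglial and 5 of 6 astrocyte markers were higher, and 4 of 5 neuronal and 4 of 6 motor neuron markers were lower. The libraries d4437 and d4435 of the SOD1-G93A mice stood apart in these markers. The library d4437 had the lowest microglial sum, 1156 CPM against 1653 and 2087 CPM, the lowest astrocyte sum, 10820 CPM against 15300 and 17300 CPM, and the highest neuronal sum, 4034 CPM against 2326 and 2691 CPM. The library d4435 held 109.2 CPM of 4 Schwann cell markers, against at most 3.99 CPM in the other 5 libraries of the comparison, and the old library d149032 held 58.5 CPM against at most 11.7 CPM in the other 15. Since the tissue was whole spinal cord, fewer cells of a type and less RNA per cell cannot be told apart.

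Promoter sequences were available for 9 of the 10 genes from RefSeq on GRCm38.p6, and they were searched on both strands for 4 elements known from these pathways. The elements were the C/EBP-ATF response element bound by ATF4 (CARE, TGATGNAA), the ER stress response elements (ERSE, CCAAT and CCACG with 9 bases between them, and ERSE-II, ATTGG and CCACG with 1 base between them) and the core of the unfolded protein response element (UPRE, TGACGTGG). Windows of 300 bases, from 250 before the start site to 50 after it, held a match in 4 genes, which are shown for that reason from 200 bases before the start site to 30 after it, with the match in capitals and the strand of the gene. Hspa5 (chr2:34771890-34772119, plus strand) held an ERSE at positions -65 to -47, Trib3 (chr2:152344031-152344260, minus strand) a CARE on the opposite strand at positions 15 to 22, Chac1 (chr2:119351042-119351271, plus strand) a CARE on the opposite strand at positions -193 to -186, and Asns (chr6:7693180-7693409, minus strand) a CARE at positions -23 to -16.
Hspa5: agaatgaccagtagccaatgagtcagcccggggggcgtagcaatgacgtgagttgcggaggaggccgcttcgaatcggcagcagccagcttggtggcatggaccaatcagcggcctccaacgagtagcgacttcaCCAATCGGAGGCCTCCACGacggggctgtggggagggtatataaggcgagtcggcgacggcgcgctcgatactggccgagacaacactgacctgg
Trib3: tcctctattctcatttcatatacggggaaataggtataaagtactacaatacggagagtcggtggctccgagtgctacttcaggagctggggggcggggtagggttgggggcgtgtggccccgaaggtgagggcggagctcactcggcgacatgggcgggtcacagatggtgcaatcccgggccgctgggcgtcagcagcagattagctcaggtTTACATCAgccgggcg
Chac1: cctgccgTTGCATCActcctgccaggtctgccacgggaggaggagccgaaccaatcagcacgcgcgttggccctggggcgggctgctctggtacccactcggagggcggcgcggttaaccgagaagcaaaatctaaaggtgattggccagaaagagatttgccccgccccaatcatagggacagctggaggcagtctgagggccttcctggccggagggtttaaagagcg
Asns: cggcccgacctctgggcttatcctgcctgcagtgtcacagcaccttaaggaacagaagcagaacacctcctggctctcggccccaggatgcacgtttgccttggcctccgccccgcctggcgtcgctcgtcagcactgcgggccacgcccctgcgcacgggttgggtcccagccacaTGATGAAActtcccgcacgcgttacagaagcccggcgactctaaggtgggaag
Among 32851 RefSeq promoter windows of mouse genes, 3.97% held a CARE, 0.119% an ERSE, 0.0365% an ERSE-II and 0.676% a UPRE core. Each of the 4 genes held 1 match, and the windows of the other 5 genes found in RefSeq held none of these letters. The genes with a match did not move as a group: Hspa5 fell in old mice, Trib3 rose and Asns fell in SOD1-G93A mice, and Chac1 passed the test in neither comparison.

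Transcript levels per length spanned more than 2 orders of magnitude in young, old and control mice, and less in SOD1-G93A mice. FPKM scales fragments by transcript length and library size, so that levels of different genes can be compared. In young mice Hspa5, which encodes the ER chaperone BiP, was the most abundant transcript at 108.3 ± 23.4 FPKM (SD, n = 8). It was followed by Asns, for asparagine synthetase, at 52.5 ± 4.73 FPKM and by the transcription factor gene Atf4 at 48.9 ± 2.93 FPKM, and the ranges of these last genes overlapped. Xbp1 at 28.6 ± 5.06 FPKM and Ddit3 at 22.6 ± 2.94 FPKM also overlapped, whereas Atf5 at 14.3 ± 1.0 FPKM and Atf6 at 6.92 ± 0.601 FPKM each lay apart from their neighbors. Sesn2 at 4.96 ± 0.653 FPKM overlapped with Chac1 at 3.95 ± 0.649 FPKM, and Trib3 was lowest at 0.444 ± 0.192 FPKM. Hspa5 was the highest and Trib3 the lowest of the 10 in each of the 4 groups. Ddit3 was in the fifth place in control mice, at 21.1 ± 2.56 FPKM, and in the third in SOD1-G93A mice, at 46.2 ± 12 FPKM (n = 3), where its range overlapped that of Asns.

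**Figure D1:**
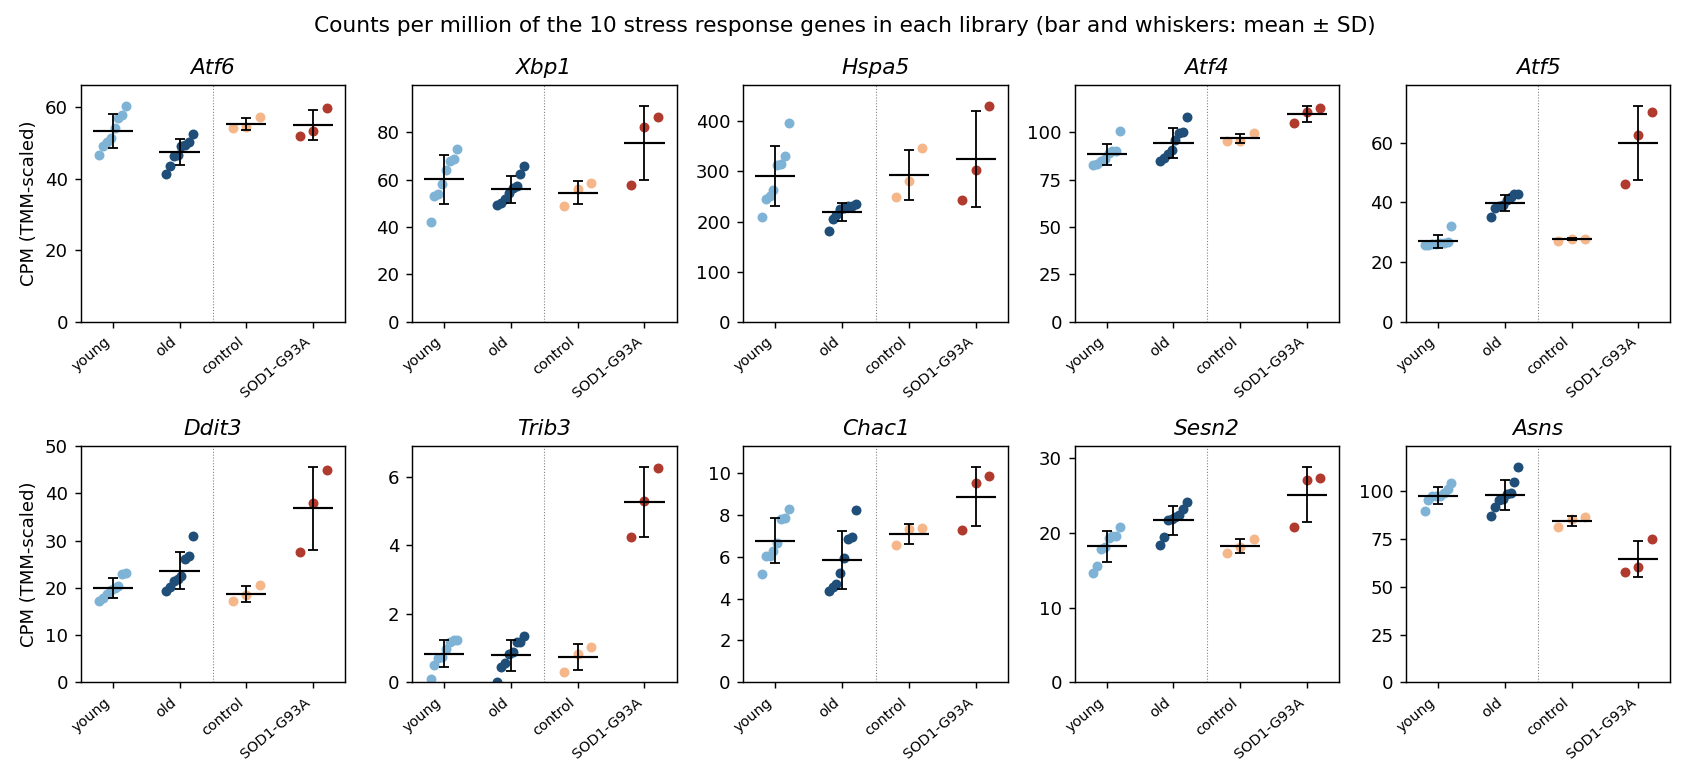
CPM of each of the 10 genes (y axis, starting at 0, scaled by TMM within each comparison) in every library of the 4 groups (x axis), with the mean and SD in black; the dotted line separates the aging comparison from the ALS comparison. Atf5 separated both pairs of groups, Hspa5 was lower in old than in young mice, and Trib3 and Ddit3 were higher in SOD1-G93A than in control mice.

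With aging, the 10 genes did not move together. Atf5 and Sesn2 rose, Hspa5 and Atf6 fell, and Atf4, Xbp1, Ddit3, Chac1 and Asns did not pass the test. Trib3 was too low to be tested, with 0 to 11 counts per library. Differences were tested with edgeR's quasi-likelihood test, and a gene was called when its Benjamini-Hochberg adjusted p over all 13647 genes tested was below 0.05. The calls were 2 higher and 2 lower among the 9 tested, or 22.2% each way. Of all genes, 13.5% were called higher and 12.9% lower, 26.4% in either direction. The study's further threshold, a log2 fold change beyond 1, was passed by none of the 9, against 2.18% of all genes above 1 and 0.044% below -1.

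Atf5 encodes a relative of ATF4 that is translated under the same control. Among the transcription factor genes Atf4, Atf5 and Ddit3, Atf5 showed the clearest change with age. Its level ran from 25.8 to 32.1 CPM with a median of 26.2 in young mice and from 35.0 to 42.9 CPM with a median of 40.01 in old mice. All 8 old mice were above all 8 young mice, a separation that 3.66% of all genes tested showed upward and 1.66% downward. The means were 26.9 ± 2.1 and 39.9 ± 2.65 CPM, and the log2 fold change was 0.57 (SE 0.06, adjusted p = 1.25e-07). The call held when any of the 16 libraries was left out, with adjusted p-values of at most 7.85e-07. Atf5 (chromosome 7, 44812256 to 44816658, minus strand, GRCm38) shares 82 of its 1993 exonic bases, or 4.11%, with exons of Nup62 and Il4i1 on the opposite strand, and whether the counting used strand is not stated. In the aging comparison Nup62 was not called (log2 fold change 0.16, SE 0.07, adjusted p = 0.0813), and Il4i1 was too low to be tested, with 0 to 19 counts.

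Atf4 itself was 88.3 ± 5.72 CPM in young and 94.3 ± 8.06 CPM in old mice, a log2 difference of 0.10 (SE 0.05, adjusted p = 0.19) whose 95% interval reached from -0.01 to 0.20. Ddit3, which encodes the proapoptotic factor CHOP, ran from 17.3 to 23.2 CPM (median 19.8) in young mice and from 19.3 to 31.0 CPM (median 22.2) in old mice. The ranges overlapped, although 7 of 8 old mice were above the young median. Its log2 fold change of 0.24 (SE 0.09) had an adjusted p of 0.0568, just above the threshold. It passed when either of the old libraries d149032 and d149036 or of the young libraries d149017 and d149019 was left out, with adjusted p-values of 0.0318, 0.0403, 0.0376 and 0.0418.

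Of the downstream genes, Sesn2, for the stress-inducible mTORC1 inhibitor sestrin 2, was higher in old mice. Its level ran from 14.7 to 20.8 CPM (median 18.8) in young mice and from 18.4 to 24.2 CPM (median 22.02) in old mice, with 7 of 8 old mice above the young median. The log2 fold change was 0.26 (SE 0.08, adjusted p = 0.0164). On log2(FPKM + 1) with limma it was 0.21 with an adjusted p of 0.0892. Chac1, whose product degrades glutathione, was 6.76 ± 1.09 CPM in young and 5.84 ± 1.38 CPM in old mice, with an adjusted p of 0.268. Asns was 97.6 ± 4.19 CPM in young and 97.9 ± 7.86 CPM in old mice, and the 95% interval of the log2 difference ran from -0.09 to 0.10. Trib3, which encodes a pseudokinase that restrains ATF4 and CHOP, reached 0.11 to 1.25 CPM in the young and 0 to 1.35 CPM in the old libraries.

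The genes of the ER arm went down or stayed within the spread. Hspa5 ran from 208.3 to 397.5 CPM with a median of 288 in young mice and from 181.4 to 235.8 CPM with a median of 226.2 in old mice. All 8 old mice lay below the young median, while the lowest young mouse lay within the old range. The means were 290.4 ± 60.3 and 218.4 ± 18.3 CPM, and the log2 fold change was -0.41 (SE 0.09, adjusted p = 0.00232), called in all 16 fits with a library left out. Atf6, one of the membrane sensors, ran from 46.7 to 60.3 CPM (median 52.9) in young and from 41.5 to 52.4 CPM (median 48.1) in old mice. Its log2 fold change was -0.17 (SE 0.06, adjusted p = 0.035), and the call was lost when any of 8 libraries was left out, the old d149025, d149027, d149028 and d149032 and the young d149009, d149017, d149018 and d149020, with adjusted p-values of 0.0519 to 0.0746. By limma on log2(FPKM + 1) the call of Atf6 was also lost (-0.147, adjusted p = 0.128). Xbp1, the transcription factor downstream of IRE1, was 60.0 ± 10.2 CPM in young and 55.8 ± 5.85 CPM in old mice (log2 fold change -0.10, SE 0.09, adjusted p = 0.417).

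Beyond the 10 genes, 114 further genes of these pathways were grouped in 6 lists, with 5 genes on 2 of the lists. These lists, too, were chosen with earlier results of these data known. In old mice, 20 of the 110 tested were higher and 12 lower, or 18.2% and 10.9%, against 13.5% and 12.9% of all genes, and the median log2 fold change was 0.02 against 0.00 over all genes. The 9 sensors and their processing enzymes had no gene called, and Mbtps1, the site-1 protease that cleaves ATF6, was nearest at 0.12 (SE 0.05, adjusted p = 0.0557). Mbtps1 passed without the old library d149035 or the young d149017 and with at least 10 counts in every library (adjusted p = 0.0242, 0.0444 and 0.0495). Of 18 ATF4 and CHOP targets tested, 8 were higher (44.4%) and 1 lower (5.56%), with a median of 0.09. Atf3, a stress-induced transcription factor, rose from 1.25 ± 0.369 to 6.14 ± 1.38 CPM, a log2 fold change of 2.31 (SE 0.19, adjusted p = 4.74e-09). Nupr1, a stress-induced nuclear protein, rose by 1.79 (SE 0.23) and Eif4ebp1, a repressor of cap-dependent translation, by 1.75 (SE 0.28) on the log2 scale. In the young libraries Atf3 held 6 to 15 counts and Eif4ebp1 3 to 11. Both passed the filter on low counts mainly through the old libraries, so the share of this list is a description. The other 5 higher genes of this list, Cebpb, Bbc3, Ppp1r15a, Sqstm1 and Map1lc3b, rose by 0.11 to 0.65. Without the young library d149012 or d149020, 5 genes of this list were higher, and without the old library d149026, 3 were lower.

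Of 26 ER chaperones and folding enzymes tested, 2 were higher and 5 lower with age (7.69% and 19.2%, against 13.5% and 12.9% of all genes). Hsp90b1, which encodes the ER chaperone GRP94, fell from 380.3 ± 41.4 to 292.7 ± 13.6 CPM (log2 fold change -0.38, SE 0.06, adjusted p = 3.04e-05), and Hyou1, an ER member of the HSP70 family, fell by 0.25 on the log2 scale (SE 0.06, adjusted p = 0.00163). Txndc5, a disulfide isomerase, rose by 0.22 (SE 0.05, adjusted p = 0.00162). Of 18 genes of ER-associated degradation, 3 were higher (16.7%) and 2 lower (11.1%), and 1 was higher without the old library d149028. Sel1l, a scaffold of the HRD1 ubiquitin ligase, fell by 0.19 (SE 0.04, adjusted p = 0.000449) and Edem3 by 0.18 (SE 0.04), while Edem2 rose by 0.29 (SE 0.08). Among 29 genes of amino acid supply and tRNA charging, 5 were higher (17.2%) and 4 lower (13.8%). The mitochondrial folate enzyme gene Aldh1l2 rose by 0.48 (SE 0.08), the cystine transporter gene Slc7a11 fell by 0.60 (SE 0.11), and Iars, for an isoleucyl-tRNA synthetase, fell by 0.17 (SE 0.04). Of 15 genes of the eIF2 machinery, 3 were higher (20%) and 1 lower (6.67%), with Eif2b3 at 0.31 (SE 0.10) and Eif2b2 at 0.17 (SE 0.06), both subunits of the exchange factor for eIF2, and the PERK inhibitor Dnajc3 at -0.15 (SE 0.05). In this last list 0 genes were higher without the young library d149011 and 1 without the young d159033 or the old d149035, and among chaperones 4 were higher without the old d149026. By limma on log2(FPKM + 1), the calls of Hyou1, Sel1l, Edem3, Edem2, Aldh1l2, Eif2b2 and Dnajc3 were lost, with adjusted p-values of 0.0724, 0.278, 0.0587, 0.145, 0.0926, 0.138 and 0.119, and the change of Sel1l was -0.11. Dnajc3 also lost its call in one fit of all 22 libraries (adjusted p = 0.0858), that of Eif2b2 was lost without d149032, d149011, d149012 or d159033 (adjusted p = 0.0532 to 0.0585), and that of Eif2b3 without d149035 or d149011 (adjusted p = 0.0525 and 0.0538). Microglial markers were higher in the same old mice, and their part in these differences was not tested.

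**Figure D2:**
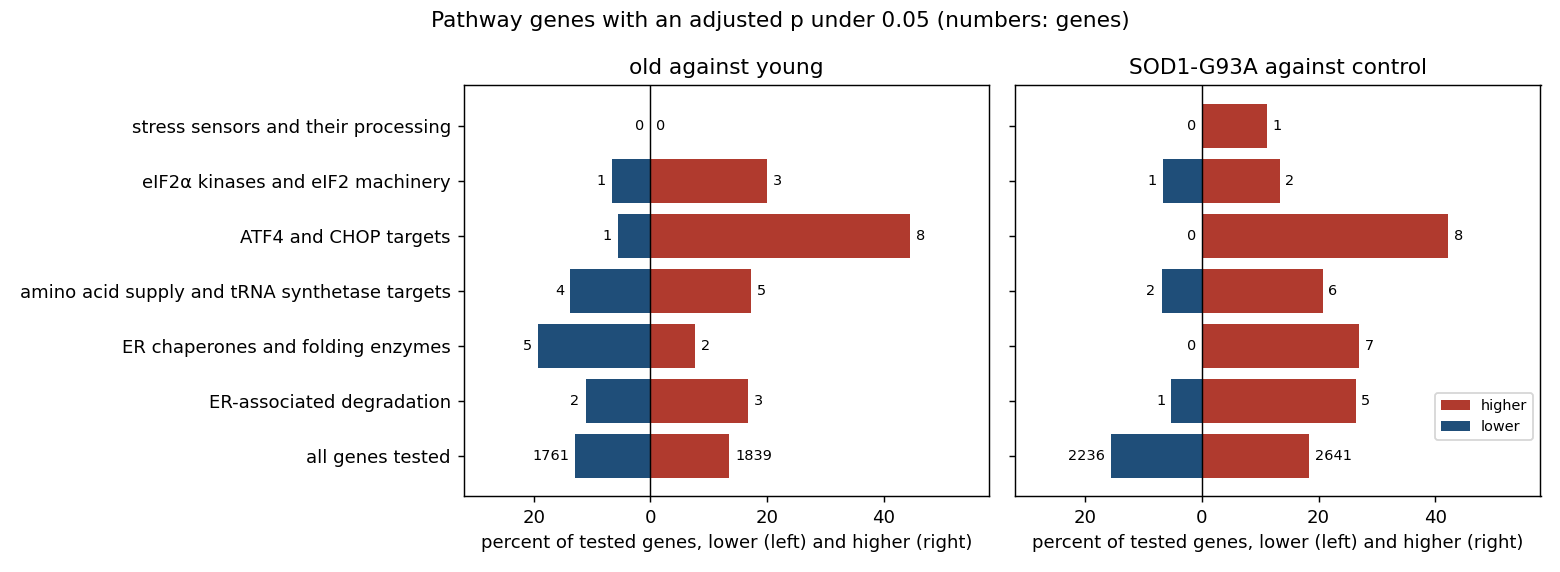
Percent of the tested genes of each of the 6 pathway lists, and of all genes tested, that were higher (red, to the right) or lower (blue, to the left) at an adjusted p under 0.05, in old against young mice (left panel) and in SOD1-G93A against control mice (right panel), with the number of genes at each bar. ATF4 and CHOP targets were higher in 8 genes in each comparison, not all of them the same genes. ER chaperones were lower in 5 genes with age and in 0 in SOD1-G93A mice.

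In SOD1-G93A mice, more of the 10 genes passed the test, most of them upward. Trib3, Atf5, Ddit3, Xbp1 and Sesn2 rose, Asns fell, and Atf4, Chac1, Hspa5 and Atf6 did not pass the test. All 10 genes were tested, so that 5 were called higher (50%) and 1 lower (10%). Of all 14386 genes tested, 18.4% were called higher and 15.5% lower, 33.9% in either direction. Trib3 passed the filter on low counts through the SOD1-G93A libraries, and without it 4 of 9 were called higher. A log2 fold change above 1 was reached by 2 of the 10, Trib3 and Atf5, against 8.5% of all genes, and one below -1 by 0, against 1.2%. The SOD1-G93A and control groups did not overlap in 5 genes that were higher, Trib3, Atf5, Ddit3, Sesn2 and Atf4, and in 1 that was lower, Asns, where 25.7% and 24.7% of all genes did not overlap in these directions. The calls of Xbp1, Sesn2 and Asns remained only when the library d4437 was left out, and were lost without any other of the 6 libraries, whereas those of Trib3, Atf5 and Ddit3 held in 6 of 6 such fits.

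Trib3 had the largest fold change of the 10. It was 0.307, 0.842 and 1.04 CPM in the control mice, from 4 to 11 counts, and 4.23, 5.28 and 6.27 CPM in the SOD1-G93A mice, from 42 to 74 counts. Each SOD1-G93A mouse was thus above each control mouse. On the log2 scale the change was 2.87 (SE 0.39, adjusted p = 0.00128), a 7.29-fold difference. Trib3 nevertheless stayed the lowest of the 10 genes, at 2.53 ± 0.456 FPKM.

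Atf5 was 27.2, 27.9 and 27.9 CPM in the control mice and 46.3, 62.8 and 70.5 CPM in the SOD1-G93A mice. The control mice lay close together, and the SOD1-G93A mice lay apart from them and were spread widely. The groups differed by a log2 fold change of 1.12 (SE 0.15, adjusted p = 0.00105), or 2.17-fold. The overlapping Il4i1 was also higher in SOD1-G93A mice (log2 fold change 2.67, SE 0.65, adjusted p = 0.0137), with 26 to 39 counts against 0 to 10, fewer than the 460 to 832 counts of Atf5 against 294 to 363. Nup62 was not called (0.28, SE 0.13, adjusted p = 0.124).

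Ddit3 was 17.2, 18.4 and 20.6 CPM in the control mice and 27.6, 37.9 and 44.9 CPM in the SOD1-G93A mice, which did not overlap. This was a log2 fold change of 0.98 (SE 0.17, adjusted p = 0.00418), close to the study's threshold of 1. Ddit3 (chromosome 10, 127290774 to 127296288, plus strand) shares 68 of 1713 exonic bases with Mars, on the opposite strand, and 105 with a further annotated entry of Ddit3 that was not analysed here. Mars was not called (log2 fold change 0.36, SE 0.14, adjusted p = 0.0709). Atf4 differed less. It was 95.1, 95.6 and 99.6 CPM in control and 104.9, 110.5 and 113.0 CPM in SOD1-G93A mice, and although the groups did not overlap its log2 fold change of 0.18 (SE 0.08) had an adjusted p of 0.108. Without d4437 it was 0.21 with an adjusted p of 0.0412.

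Sesn2 was 17.3, 18.1 and 19.2 CPM in the control mice and 20.9, 27.1 and 27.4 CPM in the SOD1-G93A mice, the lowest of which was d4437. Sesn2 had a log2 fold change of 0.46 (SE 0.13, adjusted p = 0.026). It was 0.58 (adjusted p = 0.00195) without d4437, and without any other library the adjusted p was between 0.0572 and 0.109. Chac1 was 6.55, 7.32 and 7.38 CPM in control and 7.25, 9.49 and 9.83 CPM in SOD1-G93A mice, with d4437 inside the control range (log2 fold change 0.32, SE 0.18, adjusted p = 0.194). Asns, a known target of ATF4, moved the other way. It was 81.2, 85.5 and 86.5 CPM in control and 57.5, 60.3 and 75.1 CPM in SOD1-G93A mice, a log2 fold change of -0.39 (SE 0.11, adjusted p = 0.0237). Without d4437 it was -0.51 (adjusted p = 0.000493), and without any other library the adjusted p was between 0.0572 and 0.103. The per-length levels did not carry this call, with 43.9 ± 3.47 FPKM in control and 39.5 ± 4.74 FPKM in SOD1-G93A mice and, by limma on log2(FPKM + 1), a log2 fold change of -0.15 (adjusted p = 0.34).

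In the ER arm, Xbp1 was 48.9, 56.0 and 58.4 CPM in the control mice and 57.7, 82.1 and 86.3 CPM in the SOD1-G93A mice. Only d4437 lay inside the control range. Xbp1 had a log2 fold change of 0.47 (SE 0.15, adjusted p = 0.0392), or 0.63 (adjusted p = 0.000361) without d4437, and without any other library the adjusted p was between 0.0778 and 0.138. Hspa5 was 249.8, 280.8 and 347.0 CPM in control and 242.9, 302.5 and 429.8 CPM in SOD1-G93A mice. These overlapped widely, and the approximate 95% interval of the log2 difference of 0.15 ran from -0.24 to 0.55 (adjusted p = 0.595). Without the library d4435, which had the highest value and held the Schwann cell markers, the difference was -0.10. The libraries d4435 and control d4444 had the most Y-linked counts, 3149 and 2847, and the highest Hspa5 of their groups. Leaving out d4435 thus also left the sexes unequal between the groups. The part of sex or of Schwann cell tissue was not tested. Atf6 was 55.4 ± 1.72 CPM in control and 55.0 ± 4.2 CPM in SOD1-G93A mice, with an approximate interval of -0.18 to 0.17.

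**Figure D3:**
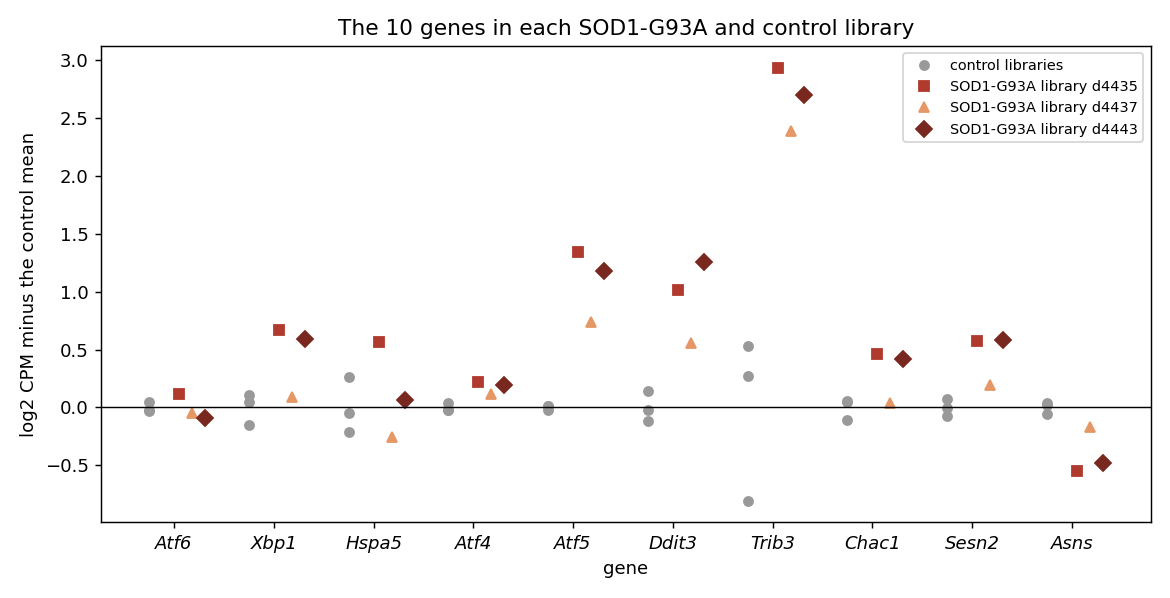
Log2 CPM of the 10 genes (x axis) minus the mean of the control libraries (y axis, 0 is the control mean) in the 3 control libraries (grey circles) and in the SOD1-G93A libraries d4435 (squares), d4437 (triangles) and d4443 (diamonds). For Atf5, Ddit3, Trib3, Xbp1, Sesn2 and Asns the library d4437 lay nearest to the control libraries.

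The SOD1-G93A library d4437 had the smallest shift in all 6 called genes. Relative to the control mean its log2 CPM was 0.74 higher for Atf5, against 1.34 in d4435 and 1.18 in d4443, and 0.56 higher for Ddit3, against 1.01 and 1.26. For Xbp1 it was 0.09, against 0.67 and 0.60. The same library had the lowest microglial and astrocyte marker sums and the highest neuronal sum of the SOD1-G93A libraries, as given above, and their part in these differences was not tested.

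Of 112 further pathway genes tested in SOD1-G93A mice, 28 were higher and 4 lower, or 25% and 3.57%, against 18.4% and 15.5% of all genes, and their median log2 fold change was 0.17 against 0.00 over all genes. These counts depended on single libraries. Without d4437 they were 49 higher and 10 lower, without d4443 16 and 0, without d4438 18 and 2, and without d4441 18 and 0, while the lower count was 1 without d4435 and 0 without d4444. Among 19 ATF4 and CHOP targets, 8 were higher (42.1%) and 0 lower, with a median of 0.48. Gdf15 was among the 8, with a log2 fold change of 6.41, and was too low to be tested in aging. Atf3 held 1 to 13 counts in the control libraries and passed the filter on low counts through the SOD1-G93A libraries. The share of this list is therefore a description. Atf3 rose from 0.774 ± 0.614 to 31.8 ± 12.7 CPM (log2 fold change 5.41, SE 0.53, adjusted p = 0.000271), Nupr1 from 1.24 ± 0.349 to 41.3 ± 22.8 CPM (5.07, SE 0.54, adjusted p = 0.000376) and Eif4ebp1 from 1.26 ± 0.344 to 8.41 ± 3.63 CPM (2.75, SE 0.38, adjusted p = 0.00129). These 3 were also the genes of this list with the smallest adjusted p in aging.

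Counts of the other lists stand beside 18.4% of all genes higher and 15.5% lower in SOD1-G93A mice. Genes of amino acid supply and tRNA charging were higher in 6 (20.7%) and lower in 2 (6.9%) of 29. The higher share was near that of all genes. Without d4437, 9 were higher and 4 lower, whereas 0 were lower without any other library. Aldh1l2 rose by 1.25 (SE 0.13), the neutral amino acid transporter gene Slc1a4 by 0.64 (SE 0.09) and Shmt2, for a mitochondrial serine hydroxymethyltransferase, by 0.61 (SE 0.12) on the log2 scale, which differ in sign from Asns. The 2 lower genes, Gars and Nars, for glycyl- and asparaginyl-tRNA synthetases, fell by 0.43 (SE 0.12, adjusted p = 0.021) and 0.41 (SE 0.11, adjusted p = 0.0227), in the direction of Asns, and are named here after their values were seen. ER chaperones and folding enzymes were higher in 7 (26.9%) and lower in 0 of 26. Sec61a1, a subunit of the ER translocon, rose by 0.66 (SE 0.12), the disulfide isomerase gene P4hb by 0.54 (SE 0.10) and Sil1, for a nucleotide exchange factor of BiP, by 0.58 (SE 0.13). The count of 7 became 15 without d4437, 3 without d4443 or d4441 and 4 without d4438. Of 19 genes of ER-associated degradation, 5 were higher (26.3%) and 1 lower (5.26%). The higher count was 9 without d4437 and 2 to 3 without any other library. Edem1 and Edem2, which help to select misfolded glycoproteins, rose by 0.99 (SE 0.15) and 0.75 (SE 0.15), and the ubiquitin-conjugating enzyme gene Ube2j1 fell by 0.43 (SE 0.11), a call lost without d4443, d4441 or d4444 (adjusted p = 0.0765, 0.0599 and 0.0512). Among 15 genes of the eIF2 machinery, Eif2ak2, for the RNA-activated kinase PKR, rose by 0.85 (SE 0.15), Ppp1r15a, for the phosphatase subunit GADD34, by 0.74 (SE 0.17, lost without d4443 or d4441, adjusted p = 0.0585 and 0.0541), and Eif2ak1, for the heme-regulated kinase, fell by 0.29 (SE 0.08, lost without d4435, d4443, d4441 or d4444, adjusted p = 0.0765 to 0.104, and by limma on log2(FPKM + 1), adjusted p = 0.103). Of 9 sensors and processing enzymes, 1 was called (11.1%), Creb3l2, for a membrane-bound transcription factor, which rose by 0.47 (SE 0.12). Without d4443, d4438 or d4444 its adjusted p was 0.0603, 0.054 and 0.0674, and by limma on log2(FPKM + 1) it was 0.0584. Its relatives Creb3l1 and Creb3 passed in one fit of all 22 libraries (1.18 and 0.27 on the log2 scale, adjusted p = 0.0129 and 0.0198), Creb3l1 also with a term for high Y-linked counts (1.31, adjusted p = 0.0191), and the count of this list was 4 without d4437 and 0 without d4443 or d4438. Glial markers were higher and neuronal markers lower in the same mice, and their part in these differences was not tested.

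Whether the change in SOD1-G93A mice differed from that in old mice was tested as an interaction in one fit of all 22 libraries. The difference, SOD1-G93A minus aging, was above 0 and passed the test in 4 of the 10 genes, and it was below 0 and passed in 1. Of 14502 genes, 11.6% and 14.2% did so, 25.8% in either direction. A difference above 1 was found for 3.82% of all genes, Trib3 among them, and one below -1 for 0.986%. Trib3 was too low to be tested in aging and entered this fit through its counts in the SOD1-G93A libraries, so its difference is a description, and 3 of the 9 others had a difference above 0 that passed. The difference of the log2 fold changes was 2.85 (SE 0.65, adjusted p = 0.00198) for Trib3, 0.71 (SE 0.19, adjusted p = 0.00642) for Ddit3, 0.55 (SE 0.18, adjusted p = 0.0256) for Xbp1 and 0.52 (SE 0.13, adjusted p = 0.0044) for Atf5. For Asns it was -0.42 (SE 0.10, adjusted p = 0.00341). The difference for Xbp1 was lost without d4435, d4443 or d4438, with adjusted p-values of 0.112, 0.0808 and 0.0831. For Hspa5 the difference was 0.54 (SE 0.21, adjusted p = 0.0669), and it passed without d4437 or d4444 (adjusted p = 0.0114 and 0.0355). For Sesn2, which was called higher in both comparisons, it was 0.18 (SE 0.15, adjusted p = 0.406), and the differences of Atf4, Atf6 and Chac1 did not pass either. Library kit, age and sex differ between the 2 experiments, and they cannot be told apart from the difference between aging and the SOD1 transgene.

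**Figure D4:**
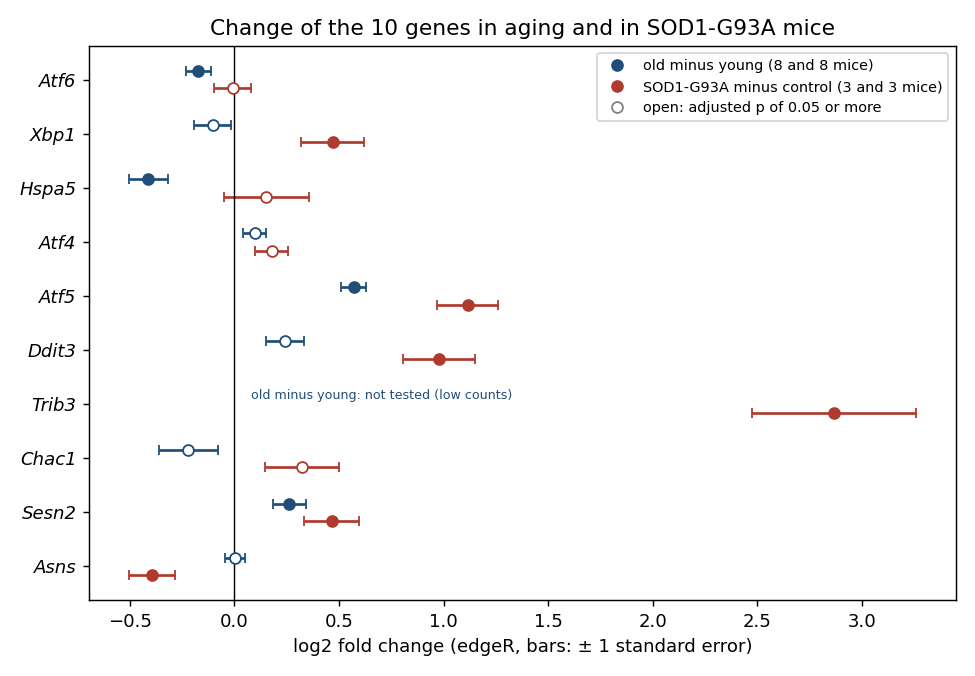
Log2 fold change (x axis, edgeR, bars are 1 SE either way) of each of the 10 genes (y axis) in old minus young mice (blue, 8 against 8) and in SOD1-G93A minus control mice (red, 3 against 3); filled points had an adjusted p under 0.05. Hspa5 lay at -0.41 in aging and 0.15 in SOD1-G93A mice, and Trib3, at 2.87, was not tested in aging.

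Finally, variation among mice of one group was examined, since mice of one age and genotype also differed from each other. Log2 CPM of 9 genes, without Trib3, gave 36 pairs in the young and 36 in the old mice, tested by exact two-sided permutation. None of the 72 pairs passed an adjusted p of 0.05, and 4 had an unadjusted p below 0.05, all of them in young mice. The highest correlation was between Xbp1 and Hspa5 in young mice (Pearson's r = 0.95, exact permutation p = 0.00112, adjusted p = 0.0804; Spearman's rho = 0.90, p = 0.00456, adjusted p = 0.164). Without the 2 mice farthest from the median of Xbp1, r was 0.92. In old mice the same pair had r = 0.28 (exact permutation p = 0.51, adjusted p = 0.888). On log2(FPKM + 1) the r of this pair was 0.91 in young and 0.63 in old mice. Hspa5 and Ddit3 followed with r = 0.88 (exact permutation p = 0.00315, adjusted p = 0.113; rho = 0.90) and r = 0.74 without 2 mice, and in old mice r was -0.31 (exact permutation p = 0.474, adjusted p = 0.888). Whether these correlations differed between young and old mice was not tested. Over the 16 mice of the aging comparison, with the mean of each group taken away, the genes most like Hspa5 among 13646 others were Pdia4 (r = 0.89), P4ha1 (0.88), Sdf2l1 (0.87), Dusp4 (0.86) and Txnl4a (0.85), given as a description, since the libraries share depth and composition. Pdia4, P4ha1 and Sdf2l1 encode proteins of the ER lumen. Those most like Atf4 were Dedd2 (0.87), Glt8d2 (0.82), Rgcc (0.81), Plekhf1 (0.80) and Sumf2 (0.79), and those most like Ddit3 were Brd9 (0.82), Apip (0.81), Chchd3 (0.79), Mrps35 (0.78) and Setd6 (0.77).

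**Figure D5:**
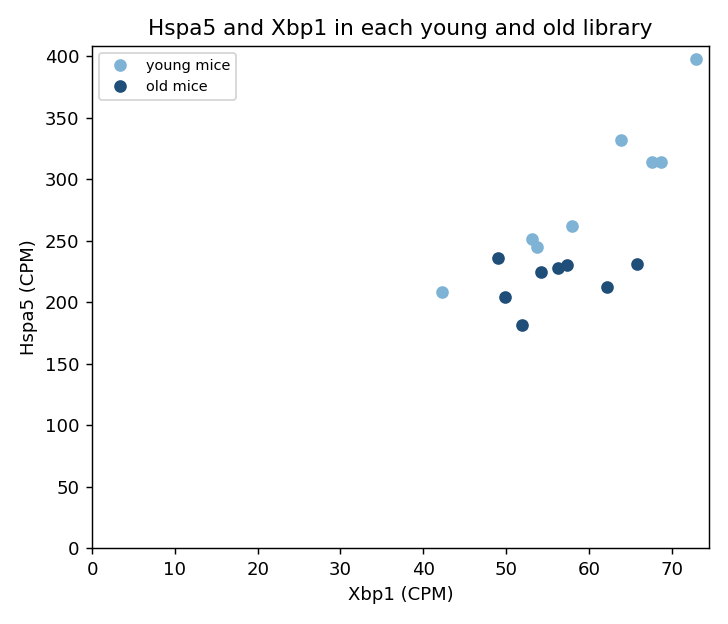
Hspa5 (y axis, CPM) against Xbp1 (x axis, CPM) in each of the 8 young (light) and 8 old (dark) mice, both axes from 0. Among young mice r was 0.95, which did not pass (adjusted p = 0.0804 by exact permutation). Among the old mice, which spanned 181.4 to 235.8 CPM of Hspa5, r was 0.28. The difference between the ages was not tested.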

How the data were processed

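Whole spinal cord RNA-seq of 22 mice was used. The authors aligned reads with STAR to the mm10 mouse genome and quantified genes with RSEM (SAMtools 1.3 is also named in the submitters' processing notes). The deposited expected counts, held as whole numbers without normalization between libraries, were used for all main tests. The second deposited table held log2 values, log2(FPKM + 1), and served for levels per length and as an alternative. Columns name a group and a library but no replicate number. Whether the same group's libraries came from separate litters is not stated, so p-values measure the spread between these mice. No 2 libraries of a group agreed within sampling noise (chi-square per degree of freedom of at least 2.52).

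The 10 genes, the 6 pathway lists (114 genes) and the cell type marker lists were chosen with earlier results of these data known. For each comparison, genes were kept by filterByExpr (minimum count 10, total 15), scaled by TMM, and tested with edgeR 4.0.16 in R 4.3.3, with p-values adjusted by Benjamini-Hochberg over every gene tested and a threshold of 0.05. CPM uses the TMM library sizes, and log2 CPM a prior count of 2. The difference between comparisons was an interaction term in one fit of all libraries. The lowest CPM values rest on few counts, 3 counts being treated as the floor. Counts were simulated with changes of 0.75 and 1.5 on the log2 scale. With the aging design, run on 13573 genes, 92.9% and 100% of the changed genes were recovered. With the ALS design, run on 14282 genes, 60.6% and 92% were recovered. Unchanged genes made up 1.56% and 6.17% of the calls. No change below 0.75 was simulated, although every tested change of the 10 genes with age was smaller than that. In SOD1-G93A mice, only Trib3, Atf5 and Ddit3 of the 10 changed by more than 0.75. The shares recovered do not cover the smaller changes.

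Named beside the 10 genes were the 3 genes per list and comparison with the smallest adjusted p, the cell type markers, and the 5 genes most correlated with Hspa5, Atf4 and Ddit3. Gene positions and exon overlaps are from GENCODE M21 on GRCm38, and promoters from RefSeq on GRCm38.p6. Alternatives were DESeq2 1.42.0, RLE size factors, limma 3.58.1 on log2(FPKM + 1), other filters on low counts, one fit of all libraries, a term for high Y-linked counts in the ALS comparison (which changed no call among the 10 genes), the study's thresholds, and each library left out in turn.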

Additional observations from a re-analysis of the deposited data

Results flagged for a closer look

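In 4 instances a single library lay far from the others of its group, among 56 groups of 8 checked, where chance gives about 1 in 20. In young mice the library d149012 held 100.4 CPM of Atf4, against 82.7 to 90.3 CPM in the other 7, and 32.1 CPM of Atf5, against 25.8 to 26.8 CPM. Aldh1l2 was 15.9 CPM in the young library d149011, against 19.1 to 21.6 CPM in the others, and 19.0 CPM in the old library d149034, against 26.5 to 31.3 CPM.

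The log2 fold change in SOD1-G93A mice differed from that in old mice, by the edgeR interaction test, in 5 of the 10 genes, against 25.8% of all genes. The difference was 0.52 for Atf5, 0.55 for Xbp1, 0.71 for Ddit3, 2.85 for Trib3, which was too low to be tested in aging, and -0.42 for Asns. For Xbp1 it was lost without d4435, d4443 or d4438. Including the 10 genes, 40 genes were checked. The other pathway genes were picked for the smallest adjusted p in 1 of the comparisons. This choice favors a difference between the comparisons, so their values are a description. Of these genes, the difference was largest for Nupr1 (3.25, adjusted p = 9.8e-05) and Atf3 (3.05, adjusted p = 0.000117). It was also positive for Edem1 (0.75), Aldh1l2 (0.75), Eif2ak2 (0.61), Sec61a1 (0.57), Dnajc3 (0.54), Creb3l2 (0.52), Ppp1r15a (0.46), Slc1a4 (0.45), Iars (0.36), Hsp90b1 (0.32, adjusted p = 0.045) and P4hb (0.30, adjusted p = 0.0369), and negative for Ube2j1 (-0.49, adjusted p = 0.001). Library kit, age and sex cannot be told apart from this difference.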

How the results depend on the processing

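No paired analysis was possible because the table's columns carry no replicate numbers. DESeq2, RLE size factors and one fit of all 22 libraries kept the counts of the 10 genes called in each direction in both comparisons. By limma on log2(FPKM + 1), 1 gene was higher and 1 lower with age and 0 were lower in SOD1-G93A mice, and 8 pathway genes were higher and 7 lower with age (against 20 and 12). With the study's thresholds 0 and 0 were called with age and 2 and 0 in SOD1-G93A mice. One fit of all libraries called 10 pathway genes lower in SOD1-G93A mice, against 4. With each library left out, the 10 genes gave 2 to 3 higher and 1 to 2 lower with age, 3 to 6 higher and 0 to 1 lower in SOD1-G93A mice, and 3 to 5 and 1 to 1 for the difference between comparisons. Pathway genes gave 15 to 23 and 12 to 14 with age, and 16 to 49 and 0 to 10 in SOD1-G93A mice. The sign turned only for genes that were not called. Asns with age was -0.0227 by limma, -0.0041 without a filter, and -0.0253 to 0.0263 with a library left out. Atf6 in SOD1-G93A mice was 0.004 with at least 10 counts in every library, 0.0394 by limma, and -0.0666 to 0.0372 with a library left out, and Hspa5 was -0.0958 (without d4435) to 0.3263. The cause of these changes was not tested. Leaving out a control or SOD1-G93A library left 5 libraries in the fit. Apart from libraries left out, 146 of 159 single-gene values with age and 186 of 194 in SOD1-G93A mice kept direction and call. The ALS comparison rests on 3 mice per group, and its calls moved with single libraries.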
